A study of Mus musculus with 8 samples.

Results

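ATP-binding cassette (ABC) proteins were followed across RNA sequencing libraries of microglia, the macrophages that reside in brain and spinal cord, sorted from mouse spinal cord as living CD11b+ cells with low CD45 and no Ly6C. The family was taken as all protein-coding genes of the mm10 GENCODE annotation whose symbol is Abc, a letter from a to g, digits and at most 1 further letter. This gave 50 genes of the 54532 in the count table, all of them present by Ensembl identifier: 16 in subfamily A, 10 in B, 10 in C, 4 in D, 1 in E, 3 in F and 6 in G. Tap1, Tap2 and Cftr belong to the same protein family under other symbols and were not members. The samples were 4 female wild type mice (WT 503, 504, 506 and 527) and 4 female mice with the genotype that the labels name Cd11b-P2X4mCherryIN KI (KI 513, 526, 528 and 549), with 1 library per mouse. P2X4 is an ATP-gated ion channel. The labels give no strain, age, treatment or time for these mice, and they do not say how the knock-in allele was built or which promoter drives it. Libraries held 45167483 to 54049801 reads on genes.

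The sorted cells carried microglial transcripts at high levels: the 8 microglial markers summed to 31210 to 35970 CPM (reads relative to the TMM-scaled library size) in WT and 29980 to 34070 in KI. The 6 astrocyte markers summed to 315 to 381 CPM in WT and 312 to 373 in KI, most of it Slc1a3 (300 to 370 CPM over the 8 libraries). The 10 endothelial markers summed to 36.4 to 53.3 and 40.2 to 51 CPM, most of it Pecam1 (29.4 to 49.3 CPM), with 6 of the 10 under 1 CPM in every library. Summed erythroid markers were 160 to 524 CPM in WT and 96.6 to 307 in KI, and oligodendrocyte markers 170 to 293 and 151 to 290. P2rx4, the gene of P2X4, stood at 812, 741, 779 and 842 CPM in WT and 862, 851, 938 and 785 in KI (KI over WT, log2 fold change 0.11, SE 0.0661, edgeR quasi-likelihood adjusted p = 0.735). In sorted populations like these, fewer cells of a type and less RNA per cell cannot be told apart.

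ABC proteins share a nucleotide-binding domain that hydrolyses ATP. Most couple it to membrane-spanning domains and move a substrate across a membrane, while those of subfamilies E and F have no membrane domain and act on ribosomes and translation. In macrophages and microglia, ABCA1 and ABCG1 are the exporters that hand cholesterol and phospholipid to apolipoprotein E and lipoprotein particles, under the control of the liver X receptors, and microglia that clear myelin depend on this route. Peroxisomal members of subfamily D import very long chain fatty acids for degradation.

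Levels within the family spanned 4 orders of magnitude, so they are given per exon length, as RPKM (CPM per kilobase of exon, mean ± SD over the 8 libraries). Abca9 was highest at 153 ± 15 RPKM, followed by Abcg1 at 122 ± 22.2 and Abcd2 at 71 ± 6.77. The ranges of Abca9 (135 to 173) and Abcg1 (92.5 to 156) overlapped, whereas each library held less Abcd2 (63.7 to 85.1) than the lowest library of Abcg1. These 3 genes made up between 58.4% and 64.1% of the summed RPKM of the family in each library, and the 12 highest members between 89% and 92.1%. Abcf2 (31.3 ± 3.41 RPKM), Abcf1 (28.4 ± 2.89), Abce1 (23.6 ± 1.44) and Abcf3 (18.9 ± 2.35) came next and were all members without membrane domains. Below Abcd2, the ranges of neighbours in this order overlapped throughout, from Abcf2 on. Of the 50 genes, 13 averaged at least 10 RPKM, 23 at least 1 and 33 at least 0.1.

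**Figure D1:**
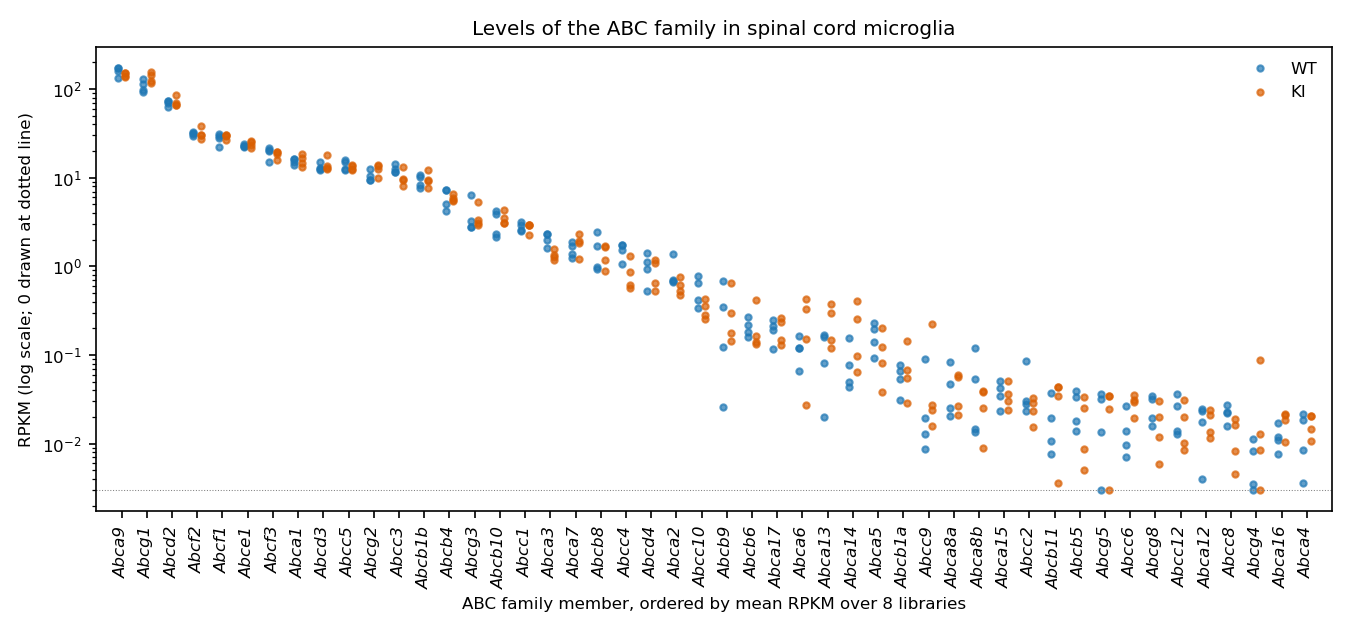
RPKM on a log axis for 48 of the 50 members, ordered by their mean, with 1 point per library (4 WT in blue, 4 KI in orange) and values of 0 drawn at the dotted line. Abca9, Abcg1 and Abcd2 stand above the rest, and in most members the WT and KI points overlap.

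Members that lie side by side in the genome differed widely in level. On chromosome 11, 5 genes of subfamily A follow each other on the minus strand, Abca8b, Abca8a, Abca9, Abca6 and Abca5. Abca9 (ENSMUSG00000041797, mm10 110100749 to 110168196) averaged 153 RPKM, against 0.0426 for Abca8a, 4770 bases away, and 0.175 for Abca6, 8623 bases away on the other side. Abca8b (0.0394 RPKM) and Abca5 (0.139 RPKM) were at similarly low levels. Abca8a held 6 to 26 reads per library, where a count of 0 would allow up to 3 reads (0.0549 to 0.067 CPM, for counting error only). Of the 50-base words of the Abca9 transcripts, 0.16% also occur in another gene. On chromosome 5, Abcb1b and Abcb4 averaged 9.43 and 5.92 RPKM. Abcb1a, which encodes the drug pump of the blood-brain barrier endothelium, was 49571 bases from Abcb1b and averaged 0.0657 RPKM. Abcb1a and Abcb1b are close copies (16.29% of the Abcb1a words occur in Abcb1b), and the split of reads between them is uncertain. Abca14, Abca15 and Abca16 on chromosome 7 were all low (0.144, 0.0366 and 0.015 RPKM), as were Abcg5 and Abcg8 on chromosome 17 (0.0219 and 0.0212 RPKM), the sterol pump of liver and intestine.

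The 250 bases upstream of the RefSeq start (GRCm38.p6, 5′ to 3′ on the gene's strand) are shown for 2 neighbouring pairs, the most and among the least abundant of the chromosome 11 genes and the pair of abundant genes on chromosome 5. Capitals mark matches on either strand to any of 12 motifs: the PU.1 core GGAAGT and, overlapping it, the longer form GAGGAAGT, the GC box GGGCGG, the CCAAT box CCAAT, the E-box CACGTG, the TATA box TATAAA, AP-1 TGANTCA, the nuclear receptor site AGGTCA and its direct repeat DR4, C/EBP TTGCNNAA, the interferon response motif and the MEF2 core TATTTATA. The motifs for C/EBP, interferon response and MEF2 were added, and the 4 windows chosen, after the levels and the matches of the other motifs had been seen.
Abca9 (chr11:110168154-110168403, minus strand): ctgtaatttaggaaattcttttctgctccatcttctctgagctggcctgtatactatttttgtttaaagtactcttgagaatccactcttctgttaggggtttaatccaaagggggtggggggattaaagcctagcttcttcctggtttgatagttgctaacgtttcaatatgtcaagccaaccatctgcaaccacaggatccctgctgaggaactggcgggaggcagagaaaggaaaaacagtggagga
Abca8a (chr11:110095938-110096187, minus strand): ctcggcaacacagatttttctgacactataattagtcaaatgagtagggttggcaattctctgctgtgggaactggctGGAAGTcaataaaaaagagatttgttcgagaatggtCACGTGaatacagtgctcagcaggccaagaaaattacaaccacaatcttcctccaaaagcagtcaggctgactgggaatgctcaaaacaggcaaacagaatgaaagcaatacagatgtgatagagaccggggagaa
Abcb1b (chr5:8797897-8798146, plus strand): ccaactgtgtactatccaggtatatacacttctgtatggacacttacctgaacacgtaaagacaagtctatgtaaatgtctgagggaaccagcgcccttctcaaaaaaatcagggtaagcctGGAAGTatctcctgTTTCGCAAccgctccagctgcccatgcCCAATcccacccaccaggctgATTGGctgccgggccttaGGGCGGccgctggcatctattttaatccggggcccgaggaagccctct
Abcb4 (chr5:8893471-8893720, plus strand): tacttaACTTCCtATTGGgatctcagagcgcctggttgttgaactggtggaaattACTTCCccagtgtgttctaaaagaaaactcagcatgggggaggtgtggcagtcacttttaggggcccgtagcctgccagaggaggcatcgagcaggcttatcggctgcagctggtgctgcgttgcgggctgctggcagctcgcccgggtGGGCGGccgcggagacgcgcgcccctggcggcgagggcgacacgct
The window of Abca9 held none of these letters. That of Abca8a held the PU.1 core at bases 172 to 167 before the start and an E-box at 136 to 131. Abcb1b and Abcb4 each held a PU.1 core, a CCAAT box and a GC box, the last at 48 to 43 bases before the start in Abcb1b and 46 to 41 in Abcb4. A gene was counted as holding a motif when any of its promoter entries did, both for the 38 members with an entry (45 entries) and for all 27025 genes with one (32851 entries). The PU.1 core was held by 9 members, against 22.23% of all genes, a CCAAT box by 13 against 37.49%, a GC box by 17 against 35.36% and an E-box by 5 against 6.86%. A TATA box was held by 5 members against 14.33% of all genes, the nuclear receptor site by 5 against 15.76%, the C/EBP motif by 3 against 10.84%, and the longer PU.1 form by 2 (Abcc10 and Abcg2) against 2.79%. AP-1, interferon response, MEF2 and direct repeat letters were in 0 of the 38, against 7.82%, 3.46%, 1.86% and 0.01% of all genes. A match is a description of the letters and not a binding site.

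**Figure D2:**
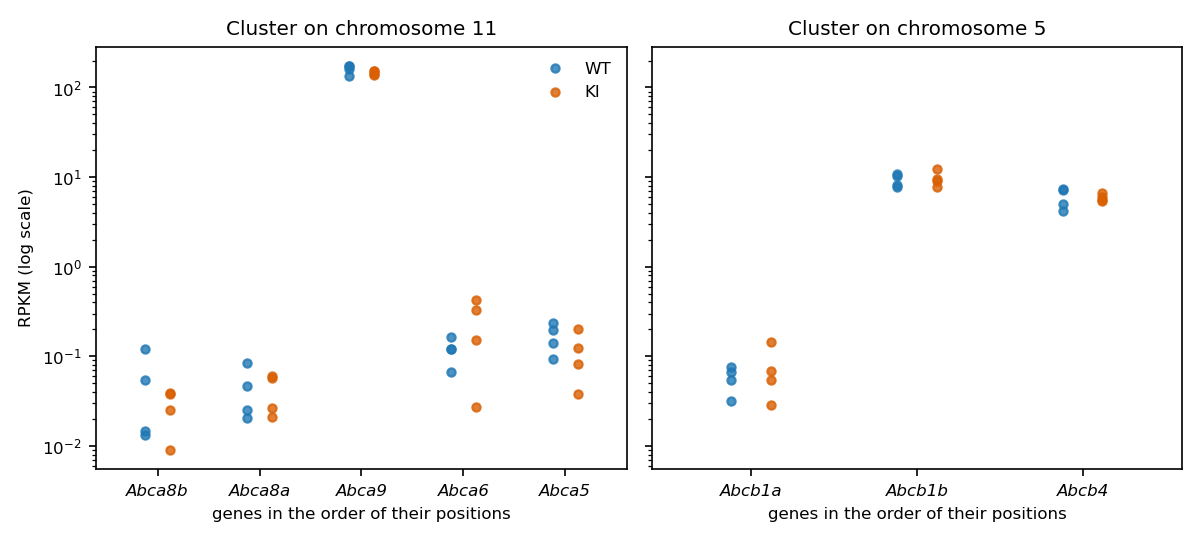
RPKM on a log axis of neighbouring members in the order of their positions on chromosome 11 (left) and chromosome 5 (right), 1 point per library, WT in blue and KI in orange. Abca9 lies about 3 orders of magnitude above the genes on both sides, and Abcb1a lies below Abcb1b and Abcb4 in every library.

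KI was then compared with WT in a fit over all genes. Of the 50 members, 39 passed the filter on low counts and were tested. By the edgeR quasi-likelihood test, 0 of these 39 had an adjusted p under 0.05, and the same test called 0 of 17291 genes in all (0%). At an unadjusted p under 0.05 stood 3 members, Abcg1 with a higher mean in KI and Abca3 and Abcc4 with lower means. Over all tested genes, 7.79% reached this level (3.23% higher and 4.56% lower in KI). Limma-voom and edgeR's likelihood ratio test also called 0 members, while DESeq2 called 1, Abca3. Over all genes, DESeq2 called 238 of 20039 and the likelihood ratio test 42 of 17291. Abca3 was also the only member whose groups did not overlap, where 4.94% of all tested genes had groups without overlap (2.34% higher and 2.6% lower in KI). The members' median log2 fold change was 0.008, with 21 above 0 and 18 below, beside a median of 0.001 over all tested genes, of which 8663 were above 0 and 8628 below. In 22 of the 39 members the 95% interval stayed inside a change of 2-fold up or down, and in 15 inside 1.5-fold.

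**Figure D3:**
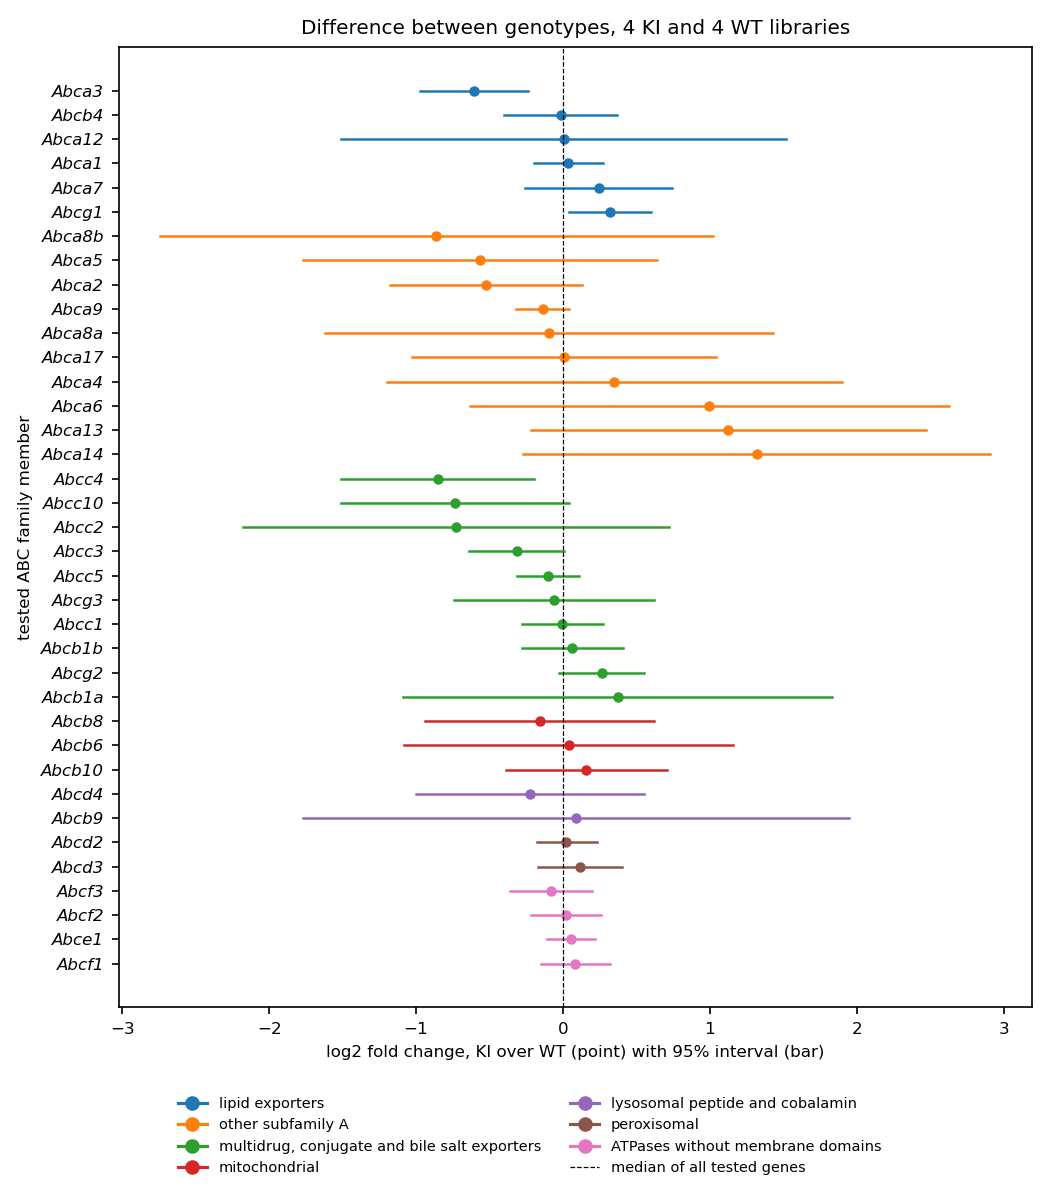
Log2 fold change of KI over WT (points) with its 95% interval (bars) for 37 of the 39 tested members, coloured by role, and the median of all tested genes as a dashed line. The intervals of Abcg1, Abca3 and Abcc4 do not reach 0, before adjustment over all genes, and the widest intervals belong to members with few reads.

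Lipid exporters were a list of 9 members: Abca1, Abca3, Abca7, Abca12, Abcb4, Abcg1, Abcg4, Abcg5 and Abcg8. Of these, 6 were tested, 4 with fold changes above 0 and 2 below, with a median log2 fold change of 0.02. The other 41 members had 33 tested, 17 above 0 and 16 below, with a median of 0.01. Both medians lay within the spread between libraries of a group in the lists' mean log2 level (SD 0.093 for the exporters and 0.069 for the others). With all of subfamilies A and G in place of the list, the medians were 0.01 for 17 tested genes and 0.002 for the 22 of subfamilies B to F.

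Abcg1, which moves cholesterol to high-density lipoprotein particles (ENSMUSG00000024030, mm10 chromosome 17, 31057698 to 31115777, plus strand), stood at 462, 536, 376 and 396 CPM in WT 503, 504, 506 and 527. In KI 513, 526, 528 and 549 it stood at 472, 507, 636 and 594 CPM. KI 528 and KI 549 lay above all WT libraries, while KI 513 and KI 526 lay below WT 504, so the groups overlapped. The means were 443 ± 72.2 CPM in WT and 552 ± 75.8 in KI (± SD, 4 mice per group), a log2 fold change of 0.32 (SE 0.126, 95% interval 0.04 to 0.6, edgeR adjusted p = 0.6). Its share of the family's summed RPKM was 19.2% ± 2.83 in WT and 23.3% ± 1.89 in KI. With each library left out in turn, the log2 fold change ran from 0.25 (without KI 528) to 0.42 (without WT 504). It was likewise 0.25 without WT 506, and 0.27 without WT 527. KI 528, the highest library for Abcg1, also held the most border-associated macrophage markers (19.6 CPM summed over 6 genes, against 4.4 to 10.4 in the other libraries). It held the most monocyte markers as well (9.32 CPM over 5 genes, against 2.56 to 6.79). Its 4 neutrophil markers summed to 19.8 CPM, against at most 5.2 elsewhere. Of the single markers, F13a1, Pf4, Cbr2, Chil3, S100a8, S100a9 and Mmp8 were highest in KI 528. Mrc1 (6.07 against 5.9 CPM), Ccr2 (6.2 against 5.24 CPM) and Cd163 (0.575 against 0.133 CPM) were higher in KI 549. Lyve1 (0.421 against 0.0888 CPM) and Plac8 (2.105 against 1.42 CPM) were higher in WT 503 than in KI 528. Ly6c2 had 0 reads and Ly6g 1 read in KI 528. The part of these markers' cells in the level of Abcg1 was not tested.

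Abca1, the exporter that loads cholesterol and phospholipid onto lipid-poor apolipoproteins (chromosome 4, 53030787 to 53159895, minus strand), was at 169, 170, 155 and 145 CPM in WT and 153, 137, 191 and 172 in KI. The highest and the lowest library were both KI. KI differed from WT by 0.03 in log2 (SE 0.105, 95% interval −0.2 to 0.27, edgeR adjusted p = 0.971), and it was −0.05 without KI 528. Per exon length Abca1 was at 15.6 ± 1.68 RPKM, below the lowest library of Abcg1 in every library.

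Abca3, known for packing phospholipid into the lamellar bodies of lung cells (chromosome 17, 24351950 to 24410201, plus strand), stood at 14.3, 17.3, 20.2 and 20.3 CPM in WT and 11.3, 11.9, 10.4 and 13.7 in KI. All 4 KI libraries lay below all 4 WT libraries. The means were 18 ± 2.85 and 11.8 ± 1.38 CPM (SD, n = 4 each), a log2 fold change of −0.61 (SE 0.165, 95% interval −0.97 to −0.24). The edgeR quasi-likelihood test gave an unadjusted p of 0.00424 and an adjusted p of 0.507, DESeq2 an adjusted p of 0.0165. With each library left out in turn, the log2 fold change ran from −0.70 to −0.54 (edgeR adjusted p 0.305 to 0.864). Of the exon bases of Abca3, 9.75% are shared with D330041H03Rik, a gene whose mean was 1.46 ± 0.472 CPM in WT and 2.22 ± 1.62 in KI. Abca17, which starts 920 bases away on the opposite strand, was at 1.02 ± 0.291 CPM in WT and 1.03 ± 0.344 in KI.

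Abca7, a phospholipid transporter whose human gene is linked to the risk of Alzheimer disease, was at 11.5, 9.23, 8.46 and 12.8 CPM in WT and 13.1, 12.4, 8.23 and 15.8 in KI. KI 549 was highest and KI 528 lowest, and the groups overlapped (log2 fold change 0.24, SE 0.226, edgeR adjusted p = 0.871). The value was 0.10 without KI 549, 0.15 without WT 506 and 0.39 without KI 528. Abcb4, the phosphatidylcholine exporter of bile, was at 39.4, 68.8, 47.4 and 67.9 CPM in WT and 61.7, 50.8, 52.7 and 55.8 in KI. The KI libraries lay inside the WT range (log2 fold change −0.02, 95% interval −0.4 to 0.37, edgeR adjusted p = 0.993). Abca12, the ceramide transporter of skin, held 3 to 19 reads per library. Abcg4, Abcg5 and Abcg8 did not pass the filter. Abcg4, a sterol exporter of neurons and astrocytes, held 0 to 3 reads in 7 libraries and 24 in KI 526. That library had the highest sum of neuronal markers (13.96 CPM, against 0.555 to 7.32 in the others), most of it Snap25 (8.08 CPM). Snap25, Tubb3 and Nefl were highest in KI 526, Syt1 in WT 504 and Rbfox3 in KI 549. The astrocyte marker sum of KI 526 was 365 CPM, below the 381 of WT 504, most of each being Slc1a3 (341 and 370 CPM). Of the single astrocyte markers, Gfap (9.99 CPM), Slc1a2 (7.42 CPM) and Aldh1l1 (1.07 CPM) were highest in KI 526. Slc1a3, Aqp4 and Gja1 were highest in WT libraries. The source of the Abcg4 reads was not tested.

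**Figure D4:**
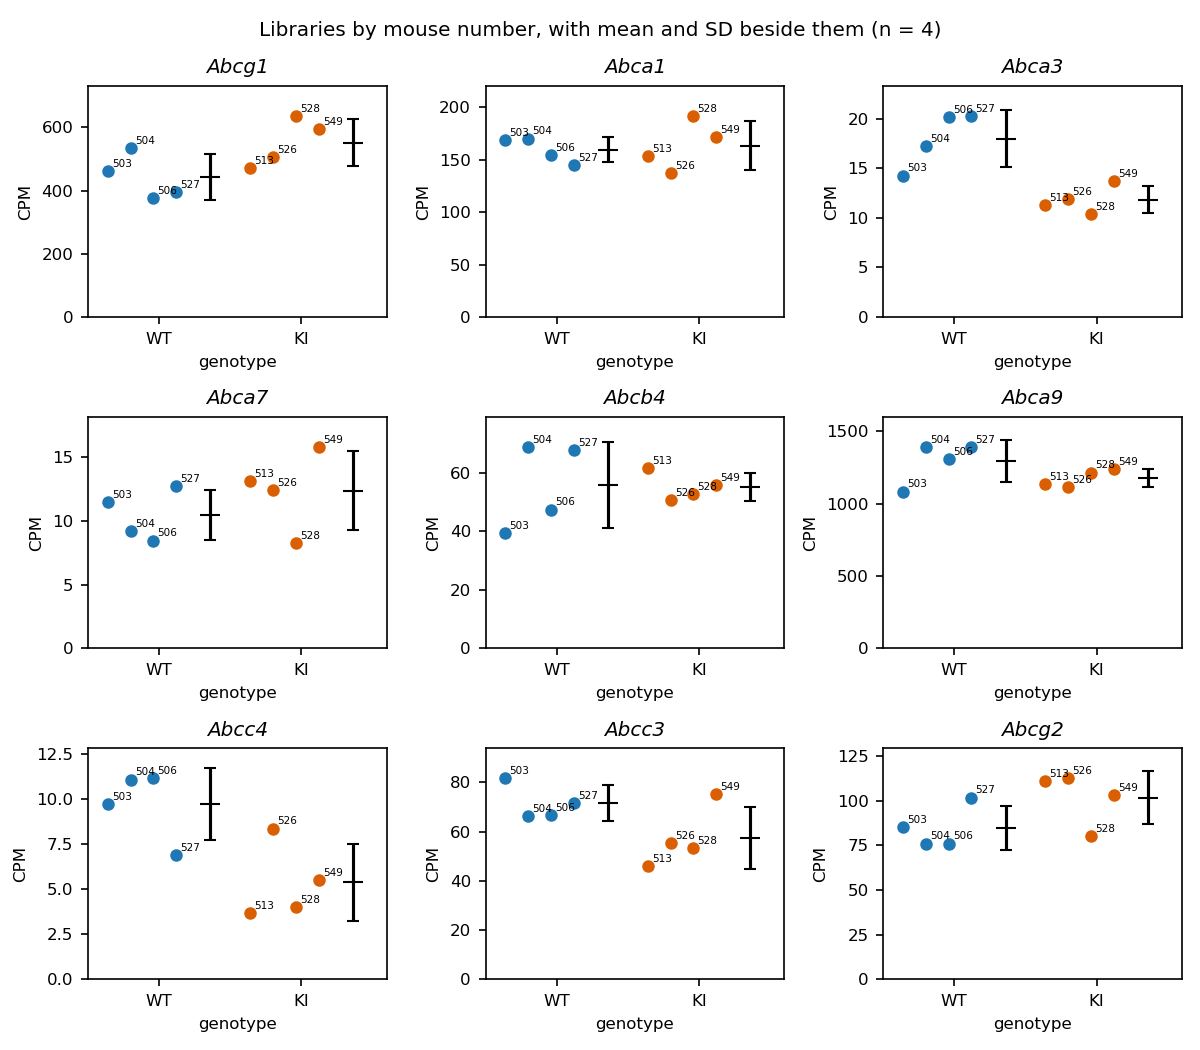
CPM of 9 members in each library, labelled by mouse number (WT blue, KI orange), with the mean and SD of each group beside the points (n = 4) and axes from 0. The groups are apart in Abca3 and overlap in the other 8.

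Of the other subfamily A genes, 10 of 12 were tested, 5 above 0 and 5 below (median log2 fold change −0.04), and 0 reached an unadjusted p under 0.05. Abca9, whose substrate is not well defined, was at 1083, 1389, 1306 and 1391 CPM in WT and 1134, 1112, 1215 and 1240 in KI. WT 503 was the lowest library, and the other 3 WT libraries lay above all KI libraries. KI differed from WT by −0.14 in log2 (SE 0.0817, 95% interval −0.32 to 0.04, edgeR adjusted p = 0.745) and −0.21 without WT 503 (edgeR adjusted p = 0.478). Abca2, an endolysosomal transporter that oligodendrocytes express strongly, was at 5.51, 5.82, 11.5 and 5.71 CPM in WT and 6.39, 3.92, 4.39 and 5.08 in KI. The log2 fold change of −0.53 (edgeR adjusted p = 0.727) was −0.20 without WT 506, the highest library. Summed oligodendrocyte markers were 170 CPM in WT 506, the lowest value of the WT group. Abca13, the longest member, was at 1.59, 3.35, 3.18 and 0.397 CPM in WT and 7.37, 5.9, 2.4 and 2.93 in KI (KI over WT, log2 fold change 1.13, SE 0.606, edgeR adjusted p = 0.718). KI 513 and KI 526 exceeded all WT libraries and KI 528 and KI 549 did not. Abca5, a lysosomal member, was at 1.06, 2.28, 1.59 and 2.66 CPM in WT and 0.938, 0.433, 1.42 and 2.32 in KI, with overlap (log2 fold change −0.57, edgeR adjusted p = 0.874). The value was −1.03 without KI 549, −0.36 without WT 527 and −0.28 without KI 526.

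Exporters of drugs, conjugates and bile salts had 10 of 14 members tested, 3 above 0 and 7 below, with a median log2 fold change of −0.08. All 6 tested members of subfamily C were at or below 0, from −0.005 for Abcc1 to −0.85 for Abcc4, with a median of −0.52. Over all tested genes, 8628 of 17291 were below 0. By the edgeR quasi-likelihood test, 1 of the 6 had an unadjusted p under 0.05, against 7.79% of all tested genes. The median lay between Abcc3 (−0.32) and Abcc2 (−0.73, SE 0.652), and Abcc2 held 7 to 34 reads per library. Abcc4, which exports cyclic nucleotides and prostaglandins (chromosome 14, 118482692 to 118706219, minus strand), was at 9.72, 11.1, 11.1 and 6.86 CPM in WT and 3.64, 8.35, 3.97 and 5.51 in KI. KI 526 lay above WT 527, the lowest WT library, and the other KI libraries lay below it. The means were 9.7 ± 2 and 5.37 ± 2.15 CPM (log2 fold change −0.85, SE 0.295, edgeR adjusted p = 0.572). Abcc3, an exporter of glucuronide conjugates, was at 81.8, 66.3, 66.7 and 71.7 CPM in WT and 45.9, 55.5, 53.4 and 75.3 in KI. KI 549 was the one KI library inside the WT range, and the log2 fold change of −0.32 (SE 0.147, edgeR adjusted p = 0.661) was −0.47 without it (edgeR adjusted p = 0.287). Abcc10, an exporter of lipophilic drugs, was at 4.5, 2.88, 2.34 and 5.38 CPM in WT and 1.92, 2.47, 2.95 and 1.74 in KI, with overlap (log2 fold change −0.73, edgeR adjusted p = 0.67). Abcc5, an exporter of cyclic nucleotides, was at 131, 134, 168 and 163 CPM in WT and 131, 134, 144 and 148 in KI (KI over WT, log2 fold change −0.10, edgeR adjusted p = 0.874), and the value was −0.04 without WT 506, −0.05 without WT 527 and −0.16 without WT 503. Abcc1, the glutathione conjugate and leukotriene exporter, averaged 42.1 ± 4.62 and 42 ± 5.07 CPM.

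Abcg2, the efflux pump of drugs and urate (chromosome 6, 58584523 to 58695676, plus strand), was at 85.5, 76.1, 76.1 and 102 CPM in WT and 111, 113, 80.4 and 103 in KI. KI 513, KI 526 and KI 549 lay above all WT libraries, and KI 528 lay among them. KI differed from WT by 0.26 in log2 (SE 0.131, 95% interval −0.03 to 0.55, edgeR adjusted p = 0.685). Abcg3, a rodent relative of Abcg2, averaged 3.72 RPKM. Abcb1b, a drug pump, averaged 73.7 ± 11.8 CPM in WT and 77 ± 15.2 in KI (KI over WT, log2 fold change 0.06). The sulfonylurea receptor genes Abcc8 and Abcc9 did not pass the filter. Abcc9, a subunit of potassium channels of vascular mural cells, held 4 to 12 reads in 6 libraries, 38 in WT 527 and 101 in KI 549. These libraries also had the highest mural marker sum of their group, 7.16 CPM in WT 527 and 2.84 in KI 549. WT 503 and WT 504 had sums of 7.1 and 3.31 CPM, above that of KI 549, and held 4 and 5 Abcc9 reads. The source of the Abcc9 reads was not tested.

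In the peroxisome, Abcd2 (chromosome 15, 91145871 to 91191799, minus strand) exceeded Abcd3, an importer of branched and dicarboxylic acids, per exon length, at 71 ± 6.77 against 13.7 ± 2.01 RPKM. Abcd2 was at 379, 437, 417 and 441 CPM in WT and 390, 410, 506 and 397 in KI. KI 528 was the highest library and the other KI libraries lay within the WT range (log2 fold change 0.02, SE 0.0906, 95% interval −0.18 to 0.23, edgeR adjusted p = 0.977). Abcd3 was at 83.2, 80.4, 85.4 and 98.8 CPM in WT and 89.5, 84.8, 82.3 and 120 in KI (KI over WT, log2 fold change 0.12, edgeR adjusted p = 0.899, and −0.02 without KI 549, the highest library).

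Of the mitochondrial members, Abcb10, of haem synthesis, was at 9.19, 16.6, 10 and 18.3 CPM in WT and 13.1, 15.3, 13.2 and 18.8 in KI (KI over WT, log2 fold change 0.16, edgeR adjusted p = 0.939). The value was 0.01 without WT 503, 0.04 without WT 506 or KI 549, 0.27 without WT 504 and 0.34 without WT 527. Abcb8 averaged 7.14 ± 3.34 and 6.41 ± 1.88 CPM and Abcb6 1.11 ± 0.257 and 1.14 ± 0.718. Of the exon bases of Abcb6, 55.2% are shared with Gm29253. That gene held 6 reads in WT 506 and 0 in each other library, beside 32 to 119 for Abcb6. Whether reads on the shared bases were left out of both counts, which would lower the level of Abcb6, was not tested. In the lysosome, Abcd4, which works with the cobalamin transporter Lmbrd1, averaged 8.06 ± 3.04 and 6.89 ± 2.55 CPM, and the peptide transporter Abcb9 1.66 ± 1.65 and 1.76 ± 1.28.

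The 4 members without membrane domains had log2 fold changes from −0.08 to 0.08, each with a 95% interval inside 1.5-fold up or down. Abce1, which splits ribosomes after translation ends, was at 137, 139, 145 and 134 CPM in WT and 151, 156, 140 and 130 in KI (KI over WT, log2 fold change 0.05, edgeR adjusted p = 0.926), and with each library left out the value ran from 0.01 (without KI 526) to 0.10 (without KI 549). It had the lowest coefficient of variation of the tested members over the 8 libraries, 6.1%. Abcf1, of translation initiation, was at 136, 97.3, 130 and 124 CPM in WT and 131, 118, 133 and 133 in KI (KI over WT, log2 fold change 0.08, edgeR adjusted p = 0.915). Abcf2 was at 75.4, 81.3, 79.2 and 83.9 CPM in WT and 70.1, 77.3, 77.1 and 99.7 in KI (KI over WT, log2 fold change 0.02). Abcf3 was at 53, 71.6, 74.1 and 77.5 CPM in WT and 68.8, 69.3, 57 and 65.6 in KI (KI over WT, log2 fold change −0.08), and with each library left out the value ran from −0.19 (without WT 503) to −0.02 (without WT 527). Spread grew as levels fell: the coefficient of variation over the 8 libraries was 6.1% to 18.7% in the 17 tested members of at least 30 CPM, and 23% to 79.8% in the 14 from 1 to 30 CPM.

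Genes that work with the members were taken from lists chosen by function. Among 18 genes of sterol efflux control and acceptors, all tested, 12 were above 0 and 6 below (median log2 fold change 0.05), with 2 higher and 1 lower at an unadjusted p under 0.05 and 0 called. Apoe, the main lipid acceptor of the brain, was at 903, 886, 736 and 824 CPM in WT and 1038, 834, 1419 and 981 in KI (KI over WT, log2 fold change 0.35, edgeR adjusted p = 0.604). KI 528 was highest for Apoe, as it was for Abcg1, Abca1 and Abcd2. Of the 31 members of at least 1 CPM, KI 528 was highest in only these 3 and lowest in 5. KI 549 was highest in 7. Lpl, a lipoprotein lipase, averaged 65.7 ± 4.81 and 78.2 ± 8.94 CPM (log2 fold change 0.25, edgeR adjusted p = 0.604). Npc1, which releases cholesterol from lysosomes, was at 159, 171, 138 and 139 CPM in WT and 112, 128, 129 and 123 in KI, lower in all KI libraries (log2 fold change −0.31, SE 0.0888, edgeR adjusted p = 0.521). Its partner Npc2, which carries cholesterol to NPC1 inside the lysosome, was at 1035, 1017, 989.5 and 1034 CPM in WT and 1089, 1078, 1190 and 1040 in KI, higher in all KI libraries (log2 fold change 0.11, SE 0.0537, edgeR adjusted p = 0.682). These were the list's members whose groups did not overlap, 1 in each direction. Over all tested genes, 4.94% had groups without overlap and 7.79% an unadjusted p under 0.05. Of the liver X receptors, Nr1h2 averaged 58.4 ± 9.87 and 51 ± 11.8 CPM and Nr1h3 0.694 ± 0.498 and 1.16 ± 0.308.

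The antigen peptide transporter genes Tap1 and Tap2 both had lower means in KI. Tap2 was at 61.4, 72.9, 72.6 and 77.2 CPM in WT and 61.4, 38.3, 36.6 and 56.6 in KI (KI over WT, log2 fold change −0.56, SE 0.172, edgeR adjusted p = 0.533). KI 513 was level with WT 503 and the other KI libraries were lower. Tap1 averaged 36.5 ± 6.81 and 29 ± 7.47 CPM (log2 fold change −0.33, edgeR adjusted p = 0.741), and Tapbp, which links the transporter to class I molecules, 423 ± 35.7 and 367 ± 35.2 (−0.21, edgeR adjusted p = 0.604). Of 10 genes of peroxisome import and beta-oxidation, 3 were above 0 and 7 below, and 1 reached an unadjusted p under 0.05, the thiolase gene Acaa1a (40.1 ± 3.68 and 32 ± 4.48 CPM, log2 fold change −0.32). Of 10 genes of mitochondrial iron-sulfur and haem synthesis, 6 were above 0 and 4 below. Nfs1, the cysteine desulfurase that supplies sulfur to the clusters, averaged 31.6 ± 2.53 CPM in WT and 25.7 ± 2.39 in KI, the groups lying apart (log2 fold change −0.30, edgeR adjusted p = 0.598). Of 7 genes of ribosome recycling and termination, 2 were above 0 and 5 below, and 0 reached an unadjusted p under 0.05. Beside these counts, 7.79% of all tested genes had an unadjusted p under 0.05 and 4.94% had groups without overlap. By the edgeR quasi-likelihood test 0 genes of any of these lists were called.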

How the data were processed

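RNA of sorted spinal cord microglia was sequenced in 8 libraries, 1 per mouse. The submitters' processing notes name the aligner STAR (2.7.5c), the counter featureCounts (2.0.3), SAMtools (1.9), R with edgeR and limma, and mm10. The deposited counts are, per the file headers, exon reads summed for each gene by featureCounts from paired-end input and primary alignments. The headers show no strand option and no option to count a pair once. Reads on bases that genes share therefore cannot be assigned to a single gene, and may be missing from the counts of both. Both reads of a pair can count. The deposited FPKM values of the authors, scaled to depth and exon length, served for an alternative test; the sources used here do not say how they were made. A further 8 columns match no label and were not used.

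Counts were fitted with edgeR 4.0.16 in R 4.3.3 (TMM scaling, filterByExpr with a minimum count of 10, quasi-likelihood test, KI against WT, Benjamini-Hochberg adjustment over 17291 genes, threshold 0.05). DESeq2 1.42.0, limma 3.58.1 and other settings were alternatives. On simulated counts with 16594 genes, 100 were changed by 1 and 100 by 2 on the log2 scale. The test found 53% and 87% of these, with 8 false calls. The changed genes were drawn from those of at least 1 CPM, so the 8 tested members under 1 CPM are not covered. Smaller changes and fewer changed genes were not simulated. Libraries of 45167483 to 54049801 reads put 3 reads at 0.0549 to 0.067 CPM. Positions and symbols came from GENCODE vM21 (54495 identifiers matched) and promoters from RefSeq, GRCm38.p6. P-values weigh the difference between KI and WT against the spread between mice of a group. Some members enter the counts over the family but are not reported here one by one.

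The members and lists were chosen with earlier results of these data known. Values in every library are given for the 12 tested members highest in RPKM, up to 8 tested members in each direction that were smallest in unadjusted p with at least 1 CPM, and lipid exporters of at least 1 CPM. Partner genes are named from the 3 with the smallest unadjusted p in each list, with Tap1 and Tap2, and those not named were called by no quasi-likelihood test; Npc2, Nr1h2, Nr1h3, Abcc9 and Abcg4 were added after their values were seen.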

Additional observations from a re-analysis of the deposited data

Results flagged for a closer look

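In the 21 members whose libraries are given one by one, 42 groups of 4 libraries were searched for a library far from the others, and 2 were found, where chance gives about 1 in 20 (2.1 of 42). Abca2 was at 11.45 CPM in WT 506, while the other 3 WT libraries lay between 5.51 and 5.82 CPM. The gap was 0.948 of the range of the group, above Dixon's critical value of 0.829. Abcf1 was at 118.2 CPM in KI 526, while the other 3 KI libraries lay between 131 and 133.3 CPM, with a gap of 0.848 of the range.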

How the results depend on the processing

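No paired analysis was possible because the mouse numbers of the 2 groups do not coincide. DESeq2 called 238 of 20039 genes (71 higher and 167 lower in KI) and edgeR's likelihood ratio test 42 of 17291 (8 and 34). Limma on log2(FPKM + 1) called 1 of 19190, where the quasi-likelihood test and limma-voom called 0 of 17291. With each library left out in turn, the quasi-likelihood test called 0 genes. DESeq2 called 1 of the 44 members it gave an adjusted p, Abca3 (log2 fold change −0.61, adjusted p = 0.0165). It put 5 of 49 members at an unadjusted p under 0.05, and its share over all genes at that level was not taken. The quasi-likelihood test put 3 to 4 members there with each library left out. The members' median log2 fold change was 0.068 with a trend on exon length removed and −0.04 to 0.04 with a library left out. The median of the lipid exporters was 0.116 with limma-voom, 0.083 with the length trend removed and −0.022 to 0.133 with a library left out; that of the other members was −0.076 to 0.032. The sign turned in 6 of 168 values of the 21 members described library by library: Abcb4 (0.027 with limma-voom, 0.003 and 0.008 on log2(FPKM + 1) and log2(FPKM + 0.1), 0.036 with the length trend removed) and Abcf2 (−0.003 on each FPKM scale). With a library left out it turned in 12 of 168: Abcd2 (−0.069 to 0.062), Abcf2 (−0.096 to 0.081), Abcb4 (−0.153 to 0.099), Abcf1 (−0.01 to 0.14), Abca1 (−0.051 to 0.105) and Abcd3 (−0.024 to 0.183). The causes were not tested. Members under 1 CPM had coefficients of variation of 41.8% to 93%, which limits what their fold changes can show.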
